A study of Mus musculus with 9 samples.

Results

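The genes described here are 9 transcription factors that steer blood progenitors into granulocytes and monocytes: Cebpa, Cebpb, Cebpd, Cebpe, Gfi1, Spi1, Myb, Nfe2 and Nr4a1. They were chosen by name, as factors of these lineages, with earlier results of these data known. They are 9 of the 23420 gene symbols measured. Of these, 8 were listed under their own symbol. Spi1, which encodes PU.1, was listed under the older symbol Sfpi1, matched through the RefSeq synonyms.

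In the marrow, PU.1 and C/EBPα, the products of Spi1 and Cebpa, open the myeloid programme in progenitors. Growth factor independence 1 (Gfi1), a zinc finger repressor, favours the neutrophil over the monocyte path. C/EBPε then carries granulocyte precursors through late maturation, when the genes of the secondary granules are switched on, while C/EBPβ serves granulocyte output under stress. C/EBPδ, a further leucine zipper relative, is found in maturing granulocytes. Myb keeps progenitors dividing, Nfe2 is the tissue-restricted subunit of the NF-E2 dimer best known from megakaryocytes, and Nr4a1 is a nuclear receptor of the immediate early class on which patrolling monocytes depend.

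RNA was sequenced from Mac1+ bone marrow cells of C57BL/6 mice, in 9 Smart-seq2 libraries of 100 sorted cells each. Mac1 is the integrin CD11b, found on granulocytes and monocytes and on some dendritic and NK cells. All groups carried homozygous floxed alleles of both Ezh2, the methyltransferase of polycomb complex PRC2, and Runx1, a blood transcription factor (Ezh2 fl/fl and Runx1 fl/fl). The series title ties the alleles to leukaemia of early thymic progenitors, by way of Cre in early lymphoid cells. Neither the age of the mice nor whether any was ill at harvest is stated. The WT group (n = 3) had neither Cre nor a Flt3 mutation. The ITD group (n = 2) had in addition 1 Flt3 allele with an internal tandem duplication (Flt3 ITD/+), and no Cre. The DKOITD group (n = 4) had Rag1Cre+ and Flt3 ITD/+ together. Rag1 is switched on in early lymphoid progenitors, and the share of sorted myeloid cells with a history of Cre is unknown here. Whether each library is a different animal is not stated, and the p-values therefore rest on the variation among these 9 libraries, which may be technical.

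Library depth, read back from the RPKM steps as whole reads, ranged from 2825728 to 23124435 a library. WT 2 stood apart, with a median correlation across genes of 0.759 to the other libraries, which lay between 0.815 and 0.881. The targeted genes were read first: Ezh2 lay between 1.54 and 18.1 RPKM (reads scaled to gene length and library) in DKOITD and between 2.05 and 12.4 RPKM in WT, and Runx1 between 10.4 and 17.6 and between 3.53 and 13.02 RPKM. A value for a whole gene does not resolve a floxed exon, so these levels do not check the deletion. Itgam, which encodes the sort marker, was present in every library, at 10.98 to 39.0 RPKM in DKOITD, 78.1 to 97.3 RPKM in ITD and 90.3 to 143 RPKM in WT. DKOITD libraries 1 to 3 carry sample numbers from 228 to 274 in the labels and the other 6 libraries numbers from 385 to 393. The meaning of these numbers is not stated, and for DKOITD 1 to 3 number series and genotype cannot be told apart.

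The 4 C/EBP factors bind the same DNA element through a basic region that is nearly the same in each. The coding bases of that stretch are shown as a description of the 4 genes (GENCODE vM21 transcripts, coding strand, 5′ to 3′). Capitals mark the 39 of 48 bases identical in all 4 genes.
Cebpa: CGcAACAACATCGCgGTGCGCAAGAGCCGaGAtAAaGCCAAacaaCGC
Cebpb: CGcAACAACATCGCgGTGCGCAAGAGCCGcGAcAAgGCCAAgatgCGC
Cebpd: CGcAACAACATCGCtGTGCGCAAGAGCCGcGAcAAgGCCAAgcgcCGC
Cebpe: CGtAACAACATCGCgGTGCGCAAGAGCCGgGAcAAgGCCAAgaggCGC
Counted from the first coding base, the stretch spans bases 874 to 921 of Cebpa, 691 to 738 of Cebpb, 598 to 645 of Cebpd and 637 to 684 of Cebpe. Against Cebpa, 41 bases were identical in Cebpb, 41 in Cebpd and 40 in Cebpe. The longest run of identical coding bases between a pair of these genes was 29, between Cebpa and Cebpb, and the shortest was 14. Reads that lie within such a run could be placed on either gene. The read length is not stated.

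The regions just before the transcription starts of Cebpa and Cebpb are shown because these genes differed from each other in their levels across the groups. That of Nr4a1 is shown because, like that of Cebpb, it held several copies of TGACG, a motif chosen after the sequences were seen. Each is the 250 bases upstream of the RefSeq start, in GRCm38.p6 (mm10), all on the plus strand. Capitals mark TGACG, the core of the cAMP response element, on either strand (CGTCA on the strand shown).
Cebpa, chr7:35119043-35119292: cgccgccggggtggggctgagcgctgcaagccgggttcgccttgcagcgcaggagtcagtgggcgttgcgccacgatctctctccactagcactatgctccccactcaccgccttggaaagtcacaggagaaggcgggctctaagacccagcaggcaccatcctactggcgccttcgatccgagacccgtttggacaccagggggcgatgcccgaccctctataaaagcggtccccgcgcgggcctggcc
Cebpb, chr2:167688665-167688914: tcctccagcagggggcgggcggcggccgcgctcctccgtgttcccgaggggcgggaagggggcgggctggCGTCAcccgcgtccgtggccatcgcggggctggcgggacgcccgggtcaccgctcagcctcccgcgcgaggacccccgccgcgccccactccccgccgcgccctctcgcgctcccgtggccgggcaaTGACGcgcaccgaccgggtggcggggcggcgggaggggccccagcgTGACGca
Nr4a1, chr15:101266596-101266845: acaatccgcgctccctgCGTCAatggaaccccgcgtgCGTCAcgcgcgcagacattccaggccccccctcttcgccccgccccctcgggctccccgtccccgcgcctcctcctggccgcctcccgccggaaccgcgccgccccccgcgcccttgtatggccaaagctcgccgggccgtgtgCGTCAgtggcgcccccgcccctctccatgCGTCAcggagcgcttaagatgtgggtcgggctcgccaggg
The Cebpb window held 3 copies of TGACG and the Nr4a1 window 4, while the Cebpa window and those of Myb and Gfi1 held none. At least 1 copy was present in 17.77% of 32851 such windows of all genes, at least 3 in 0.69% and at least 4 in 0.14%. This motif was chosen after the sequences had been seen, so these shares are a description and not a test. The cores searched for the factors themselves, on both strands, were TTGCNNAA for C/EBP (in 9.56% of windows), GAGGAA for PU.1 (23.25%), AACTG for MYB (39.13%), AAATCA for GFI1 (12.43%), TGANTCA for NF-E2 (6.75%) and AAAGGTCA for NR4A1 (1.34%), with AGATAA for GATA factors (9.99%). None of these letters occurred in the windows of Cebpa, Cebpb, Nr4a1 or Myb, nor in the Gfi1 window free of annotated exons. The window of the other Gfi1 start, which lies within an annotated exon and is not shown, held 1 C/EBP core, 143 bases before that start, and 2 MYB cores, at 137 and 196 bases. The C+G content was 66.4% for Cebpa, 81.6% for Cebpb and 74.4% for Nr4a1. A match is a description of the letters and not of binding.

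Between DKOITD and WT, Cebpe, Cebpd, Cebpb and Nfe2 fell, and no factor rose. The factors past the test were thus 4 of 9, all lower (limma, Benjamini-Hochberg adjusted p under 0.05 over all genes). Of all 10868 genes tested, 5.27% were called lower and 7.43% higher. The 9 factors were chosen with earlier results of these data known, so the comparison with all genes is a description. WT averaged 5.74 times the DKOITD level of Cebpe, 4.38 times that of Cebpd, 3.85 times that of Cebpb and 3.47 times that of Nfe2. The median log2 difference of the 9 factors was -1.64, beside 0.17 for all genes. All 9 passed the filter on low values. In bulk samples of sorted cells, fewer cells of a type and less RNA per cell cannot be told apart.

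Neutrophil markers were lower in DKOITD than in WT, as were 4 of the 9 factors, and most dendritic cell markers were higher. Over all genes tested, 5.27% were called lower and 7.43% higher in that comparison. Of 7 tested neutrophil markers 6 fell and 0 rose in DKOITD against WT, and their summed level was 864102 to 1175840 RPKM in WT, 676526 to 721726 RPKM in ITD and 34985 to 263073 RPKM in DKOITD. Within DKOITD that sum was 57451, 198090, 34985 and 263073 RPKM in libraries 1 to 4. DKOITD 3, with the least Cebpe, Cebpd, Nfe2 and Gfi1, was thus also lowest in neutrophil markers. The match was not complete. Cebpb was lowest in DKOITD 1, at 6.01 RPKM, and Cebpe highest in DKOITD 2, at 38.4 RPKM. Of 8 dendritic cell markers 7 rose. Together the 8 summed to 44.2 to 1199 RPKM in WT, 4185 to 11323 RPKM in ITD and 9242 to 37633 RPKM in DKOITD. Flt3 is among these markers and met the filter only with DKOITD libraries. Monocyte markers (6, of which 2 rose) lay between 1793 and 3712 RPKM in all libraries. The part of these differences in cell makeup in the levels of the 9 factors was not tested. T cell markers reached at most 17.6 RPKM, with Cd3e at 0 in all libraries. NK cell markers lay between 0 and 156 RPKM in WT and between 7.23 and 69.0 RPKM in DKOITD, with Prf1 at 0, and stem and progenitor markers between 3.85 and 9.26 RPKM in WT and between 10.9 and 245 RPKM in DKOITD. Of 6 proliferation markers 1 fell, and they summed to 282 to 437 RPKM in WT, 220 to 375 RPKM in ITD and 172 to 274 RPKM in DKOITD. Markers of eosinophils, basophils and mast cells reached at most 7.95 RPKM, with Epx at 0 in all libraries.

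**Figure D1:**
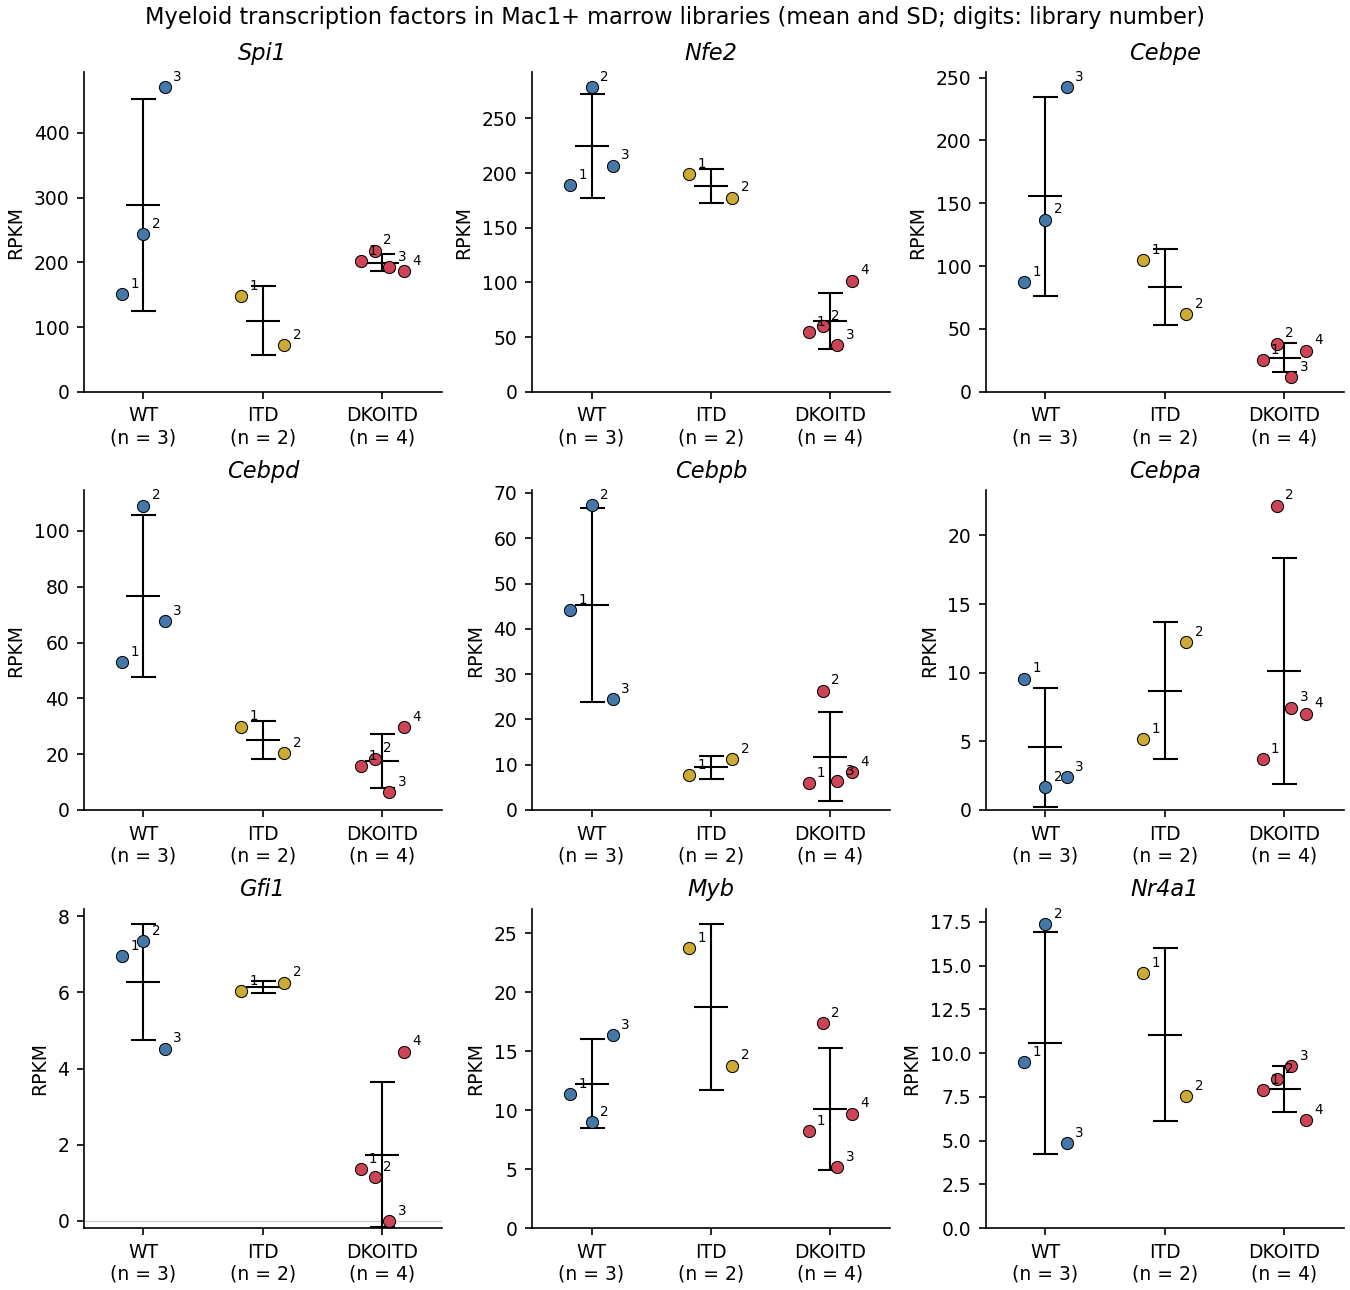
RPKM of each factor in every library, by genotype group (points, with library numbers), with the group mean and SD as bars; vertical scales differ between panels. Cebpd, Cebpe, Gfi1 and Nfe2 lie lower in all 4 DKOITD libraries than in any WT library as deposited, while Spi1 lies between 187 and 218 RPKM in DKOITD, within the WT range.

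Cebpe (chromosome 14, 54710360 to 54712174, minus strand), the C/EBP factor of late granulocyte maturation, showed the largest difference of the 9 between DKOITD and WT in the fit reported here. Gfi1 exceeded it with a pseudocount of 0.1, Cebpb and Cebpd did so without WT 3, and Cebpb with the number series as a term. Cebpe measured 87.2, 137 and 242 RPKM in WT libraries 1 to 3 and 104 and 62.1 RPKM in ITD libraries 1 and 2. In DKOITD libraries 1 to 4 it stood at 25.4, 38.4, 11.6 and 32.8 RPKM. Every DKOITD library was below every WT and ITD library, and the WT and ITD ranges overlapped. Group means were 155 ± 79.1 (SD, n = 3), 83.3 ± 29.995 (SD, n = 2) and 27.1 ± 11.6 RPKM (SD, n = 4). Cebpe fell by 2.48 ± 0.45 on the log2(RPKM + 1) scale in DKOITD against WT (SE; limma adjusted p = 0.0068; 95% interval -3.46 to -1.50). Against ITD the difference was -1.66 ± 0.51 (adjusted p = 0.133), and between ITD and WT -0.82 ± 0.54 (adjusted p = 0.725), neither past the test.

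Cebpd (chromosome 16, 15887286 to 15891031, plus strand) measured 53.0, 109 and 67.7 RPKM in WT, 29.9 and 20.3 RPKM in ITD, with 15.7, 18.4, 6.30 and 29.6 RPKM in DKOITD. The 6 libraries with the Flt3 ITD allele all lay below the 3 without it, and ITD and DKOITD overlapped. The means were 76.6 ± 29.05 (SD, n = 3), 25.1 ± 6.81 (SD, n = 2) and 17.5 ± 9.57 RPKM (SD, n = 4). Cebpd fell by 2.18 ± 0.47 in DKOITD against WT (SE; limma adjusted p = 0.0128; 95% interval -3.19 to -1.17). The values for ITD against WT, -1.53 ± 0.56 (adjusted p = 0.533), and for DKOITD against ITD, -0.65 ± 0.53 (adjusted p = 0.603; 95% interval -1.79 to 0.50), did not pass.

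Cebpb (chromosome 2, 167688915 to 167690418, plus strand), the C/EBP factor of stress granulopoiesis, measured 44.1, 67.3 and 24.5 RPKM in WT, 7.65 and 11.2 RPKM in ITD, with 6.01, 26.4, 6.45 and 8.30 RPKM in DKOITD. DKOITD 2 reached the lowest WT library, and the 5 other libraries with the Flt3 ITD allele lay at 11.2 RPKM or below. Means were 45.3 ± 21.4 (SD, n = 3), 9.44 ± 2.53 (SD, n = 2) and 11.8 ± 9.78 RPKM (SD, n = 4). Cebpb fell by 1.996 ± 0.52 in DKOITD against WT (SE; limma adjusted p = 0.0287; 95% interval -3.13 to -0.86). That call was the least stable of the 4 and ended in 8 of 21 alternatives, among them the fits without WT 1, WT 2, DKOITD 1, DKOITD 3 or DKOITD 4. The ITD group stood at -2.06 ± 0.62 against WT, a difference of similar size that did not pass (adjusted p = 0.411), and DKOITD against ITD at 0.06 ± 0.59 (adjusted p = 0.977; 95% interval -1.22 to 1.35).

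Cebpa (chromosome 7, 35119293 to 35121928, plus strand), which starts the granulocyte programme, did not share the low values. It measured 9.57, 1.67 and 2.42 RPKM in WT, 5.17 and 12.2 RPKM in ITD, with 3.71, 22.2, 7.46 and 7.03 RPKM in DKOITD. All groups overlapped, and the highest value was that of DKOITD 2, the library that was also highest for Cebpb within its group. Its means were 4.56 ± 4.36 (SD, n = 3), 8.69 ± 4.98 (SD, n = 2) and 10.1 ± 8.23 RPKM (SD, n = 4). The difference of DKOITD from WT, 1.02 ± 0.64, did not pass (adjusted p = 0.302; 95% interval -0.38 to 2.41), and its interval lies above the estimates of the other 3 C/EBP genes.

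Summed over Cebpa, Cebpb, Cebpd and Cebpe, C/EBP transcripts came to 194, 315 and 337 RPKM in WT, 147 and 106 RPKM in ITD, with 50.8, 105, 31.8 and 77.6 RPKM in DKOITD. All WT libraries were above the others, and the lowest ITD library nearly met DKOITD 2. Scaled per recovered read ITD and DKOITD overlapped, with sums of 135 and 90.2 against 69.4, 136, 45.8 and 87.5, and WT stayed above both. Cebpe was the largest share in all 9 libraries, from 36.4% to 50.1% in DKOITD, 58.7% and 71.0% in ITD and 43.5% to 71.9% in WT. Cebpa made up 4.94%, 0.532% and 0.719% of the sum in WT, 3.51% and 11.5% in ITD, and 7.29%, 21.05%, 23.5% and 9.05% in DKOITD. Its share was higher in each DKOITD library than in any WT library.

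**Figure D2:**
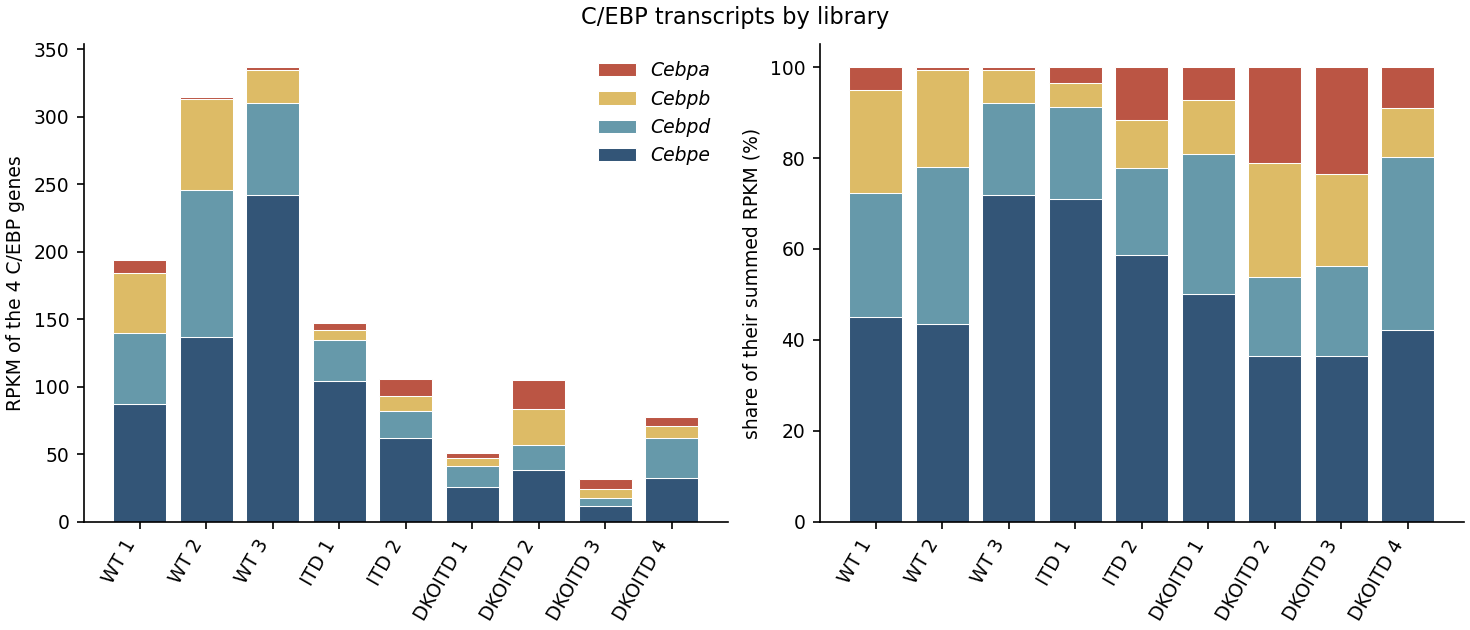
Transcripts of the 4 C/EBP genes in each library, stacked as RPKM (left) and as percent of their sum (right). The sum is 194 to 337 RPKM in WT and 31.8 to 105 RPKM in DKOITD, and the Cebpa share lies between 7.29% and 23.5% in DKOITD.

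Ratios within a library do not depend on how the libraries were scaled, apart from the pseudocount. Cebpb exceeded Cebpa by 2.09, 4.67 and 2.90 on the log2(RPKM + 1) scale in WT. The same difference was 0.49 and -0.11 in ITD and 0.57, 0.24, -0.18 and 0.21 in DKOITD. The libraries with the Flt3 ITD allele thus lay between -0.18 and 0.57, all below the lowest WT library, and Cebpb was the lower of the pair in ITD 2 and DKOITD 3.

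Spi1 (chromosome 2, 91082390 to 91115756, plus strand), the gene of the ETS factor PU.1, had the highest mean of the 9 in WT and in DKOITD. It measured 151, 244 and 470 RPKM in WT, 148 and 72.4 RPKM in ITD, with 202, 218, 192 and 187 RPKM in DKOITD. The DKOITD libraries lay close together within the wide WT range, and both ITD libraries lay below all others (not so per recovered read, where ITD 1 stood at 136 and WT 1 at 123). Group means were 288 ± 164 (SD, n = 3), 110.03 ± 53.3 (SD, n = 2) and 199.7 ± 13.7 RPKM (SD, n = 4). No comparison passed, with -0.38 ± 0.37 for DKOITD against WT (adjusted p = 0.517; 95% interval -1.19 to 0.43), a value that turned to 0.39 when scaled per recovered read and to 0.053 without WT 3. DKOITD against ITD stood at 0.94 ± 0.42 (adjusted p = 0.307) and ITD against WT at -1.32 ± 0.45 (adjusted p = 0.488).

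Cebpe kept a narrow range of levels relative to Spi1 in WT and in ITD. The log2(RPKM + 1) of Cebpe minus that of Spi1 was -0.79, -0.83 and -0.95 in WT, although Spi1 itself ranged from 151 to 470 RPKM there, and -0.50 and -0.22 in ITD. In DKOITD the difference was -2.94, -2.47, -3.94 and -2.48. Every DKOITD library lay below every WT and ITD library in this ratio. Whether the number series or cell makeup had a part in it was not tested. Relative to Spi1 the groups overlapped for Cebpb, at -4.21 to -1.75 in WT, -4.10 to -2.58 in ITD and -4.85 to -3.00 in DKOITD. They also overlapped for Cebpa, at -7.11 to -3.85 in WT, -4.59 to -2.47 in ITD and -5.43 to -3.24 in DKOITD.

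**Figure D3:**
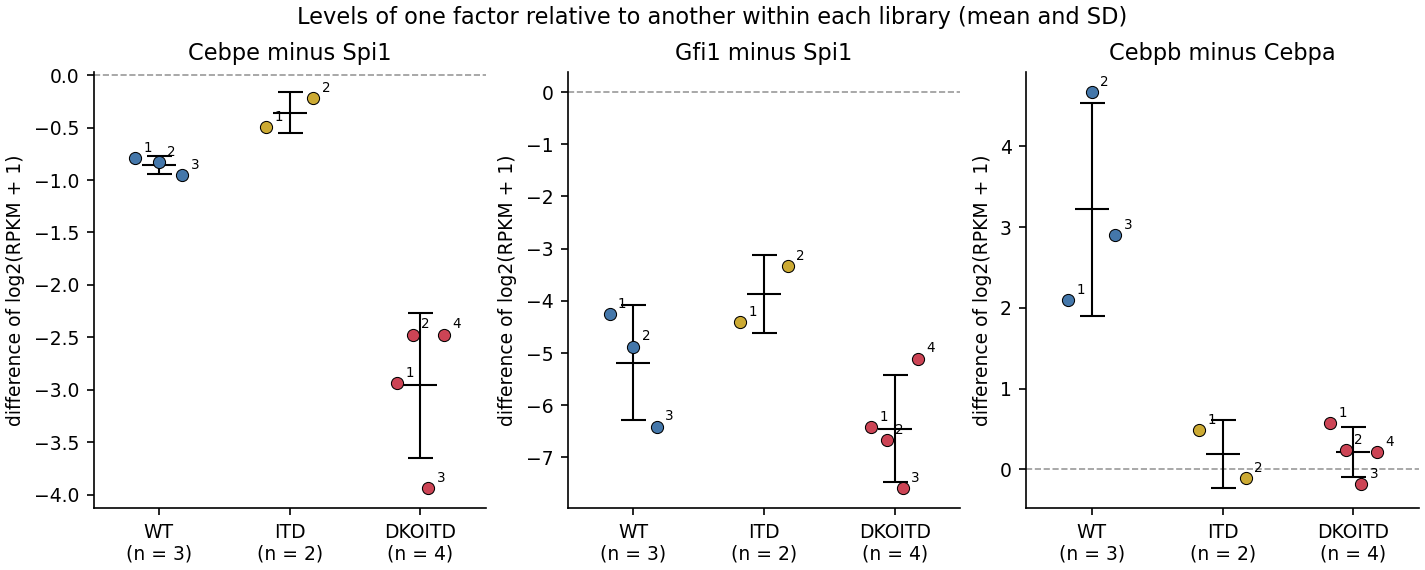
Difference of log2(RPKM + 1) between pairs of factors within each library (points), with the group mean and SD as bars. Cebpe minus Spi1 averages -0.86 in WT, -0.36 in ITD and -2.96 in DKOITD, and Cebpb minus Cebpa averages 3.22 in WT, 0.19 in ITD and 0.21 in DKOITD.

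Gfi1 (chromosome 5, 107716657 to 107726036, minus strand), the repressor that favours the neutrophil path, had the lowest mean of the 9 in ITD and DKOITD, although in ITD its range overlapped that of Cebpa. It measured 6.96, 7.34 and 4.53 RPKM in WT, 6.04 and 6.26 RPKM in ITD, with 1.36, 1.14, 0 and 4.45 RPKM in DKOITD. The 4 DKOITD libraries lay below the 5 others, though DKOITD 4 came close to WT 3 and lay above it when scaled per recovered read. The DKOITD values rest on 51, 13, 0 and 207 recovered reads, and the 0 in DKOITD 3 allows up to 3 reads, or 0.0892 RPKM, for counting error only. Group means were 6.28 ± 1.53 (SD, n = 3), 6.15 ± 0.157 (SD, n = 2) and 1.74 ± 1.90 RPKM (SD, n = 4). The difference from WT, -1.64 ± 0.57, did not pass (limma adjusted p = 0.0763; 95% interval -2.88 to -0.41). It passed under quantile normalization (adjusted p = 0.0441) and without DKOITD 4 (adjusted p = 0.0360), and with a pseudocount of 0.1 it stood at -2.71. DKOITD against ITD stood at -1.64 ± 0.64 (adjusted p = 0.239), and ITD against WT at -0.00 ± 0.68 (adjusted p = 1). Relative to Spi1, Gfi1 stood at -5.18 ± 1.11 in WT (SD, n = 3), -3.87 ± 0.75 in ITD (SD, n = 2) and -6.45 ± 1.03 in DKOITD (SD, n = 4), and WT and DKOITD overlapped.

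Nfe2 (chromosome 15, 103248212 to 103258403, minus strand), the p45 subunit of NF-E2, was among the most abundant of the 9. It measured 189, 278 and 207 RPKM in WT, 199 and 177 RPKM in ITD, with 54.4, 60.02, 42.8 and 102 RPKM in DKOITD. WT and ITD overlapped and every DKOITD library lay below both. The means were 225 ± 47.3 (SD, n = 3), 188 ± 15.4 (SD, n = 2) and 64.7 ± 25.6 RPKM (SD, n = 4). Nfe2 fell by 1.83 ± 0.32 in DKOITD against WT, the smallest adjusted p of the 9 (SE; limma adjusted p = 0.00518; 95% interval -2.52 to -1.15). Against ITD it stood at -1.60 ± 0.36 and did not pass (adjusted p = 0.0652; 95% interval -2.38 to -0.82). It did pass there without DKOITD 4 and with library quality weights (adjusted p = 0.0245 and 0.0240). ITD against WT stood at -0.23 ± 0.38 (adjusted p = 0.89; 95% interval -1.05 to 0.58). Megakaryocyte markers summed to 101, 0.0514 and 8.09 RPKM in WT and to 0 in all ITD and DKOITD libraries. Of these markers, Ppbp was at 0 in all libraries. Erythroid markers summed to 17.8 to 17156 RPKM in WT, 0 and 2730 RPKM in ITD and at most 1.40 RPKM in DKOITD. Among them, Hba-a1 and Hba-a2 were at 0 in all libraries. The part of these cell types in the level of Nfe2 was not tested.

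Myb (chromosome 10, 21124935 to 21160984, minus strand), the progenitor factor, measured 11.4, 8.99 and 16.4 RPKM in WT, 23.8 and 13.8 RPKM in ITD, with 8.23, 17.4, 5.16 and 9.72 RPKM in DKOITD. All groups overlapped, with means of 12.2 ± 3.76 (SD, n = 3), 18.8 ± 7.04 (SD, n = 2) and 10.1 ± 5.20 RPKM (SD, n = 4). The DKOITD difference was -0.33 ± 0.45 from WT (adjusted p = 0.648; 95% interval -1.30 to 0.65) and -0.90 ± 0.51 from ITD (adjusted p = 0.431). ITD stood at 0.57 ± 0.53 against WT (adjusted p = 0.795).

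Nr4a1 (chromosome 15, 101254269 to 101274795, plus strand), the immediate early nuclear receptor, measured 9.49, 17.4 and 4.85 RPKM in WT, 14.5 and 7.54 RPKM in ITD, with 7.90, 8.51, 9.26 and 6.17 RPKM in DKOITD. The DKOITD values were the tightest and lay inside the WT range. Means were 10.6 ± 6.34 (SD, n = 3), 11.04 ± 4.95 (SD, n = 2) and 7.96 ± 1.31 RPKM (SD, n = 4). The differences were -0.23 ± 0.46 for DKOITD against WT (adjusted p = 0.77; 95% interval -1.24 to 0.78), -0.38 ± 0.53 against ITD (adjusted p = 0.788) and 0.15 ± 0.55 for ITD against WT (adjusted p = 0.974). Scaled per recovered read, the first turned to 0.46 and that of Myb to 0.37.

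**Figure D4:**
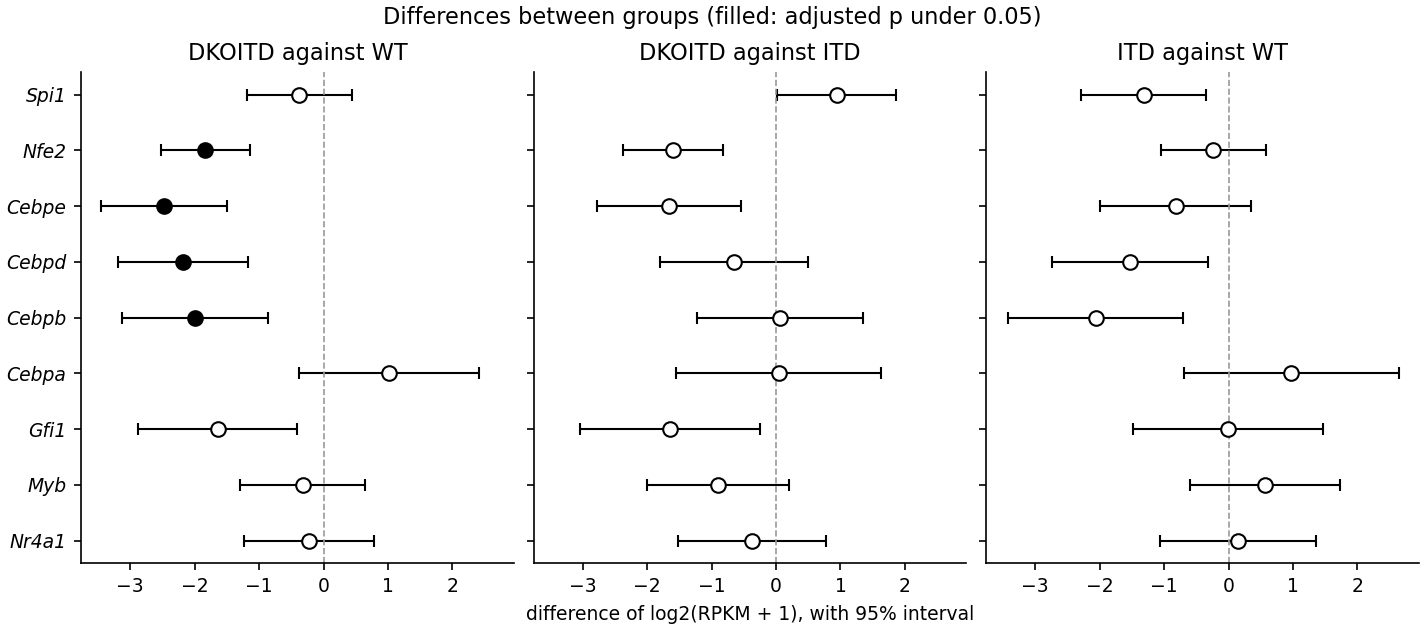
Difference of log2(RPKM + 1) with its 95% interval for each factor in the 3 comparisons; filled points passed adjusted p under 0.05 in limma. Cebpe, Cebpd, Cebpb and Nfe2 pass in DKOITD against WT, from -1.83 to -2.48, and no factor passes in the other comparisons.

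Counted by range, Cebpd, Cebpe, Gfi1 and Nfe2 (4 of 9) lay lower in every DKOITD library than in every WT library, where 10.9% of all genes did. Scaled per recovered read Gfi1 overlapped, with DKOITD 4 at 5.01 and WT 3 at 3.55, and the other 3 did not. Between DKOITD and ITD no factor passed in limma, where 0.212% of all genes did. At an unadjusted p under 0.05 stood 4 factors, Cebpe, Gfi1 and Nfe2 with lower values and Spi1 with a higher one, beside 15.7% of all genes. The same 3 lay lower without overlap, beside 14.0% of all genes, and Spi1 lay higher without overlap, beside 17.3%. These values come from 4 against 2 libraries, and the groups differ in Rag1Cre.

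Between ITD and WT no factor passed in limma either, with 0.00920% of all genes called. Cebpb, Cebpd and Spi1 stood at an unadjusted p under 0.05, all lower in ITD (3 of 9, beside 7.93% of all genes), and the same 3 did not overlap (beside 8.99% lower in all genes), although Spi1 did when scaled per recovered read. The 3 comparisons share groups, and whether a factor's difference from WT was unequal in ITD and DKOITD is given only by DKOITD against ITD, where none passed. Side by side, ITD and DKOITD stood at -2.06 and -1.996 from WT for Cebpb and at -1.53 and -2.18 for Cebpd. For Cebpe they stood at -0.82 and -2.48, for Nfe2 at -0.23 and -1.83, and for Gfi1 at -0.00 and -1.64.

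DKOITD 4 is the only DKOITD library in the number series of WT and ITD. It measured 32.8 RPKM for Cebpe and 102 RPKM for Nfe2, below all WT and ITD libraries. For Cebpb it gave 8.30 RPKM and for Cebpd 29.6 RPKM, below WT and within the ITD range. With the number series as a term in the fit, in which only this library carries the contrast with WT, Cebpe stood at -2.09, Cebpb at -2.20, Cebpd at -1.28, Nfe2 at -1.12 and Gfi1 at -0.39. None of the 4 calls was kept in that fit, in which 4 genes of all those tested passed.

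The deposited columns are not scaled to each library's own recovered reads. Scaled per recovered read, the median difference of all genes between DKOITD and WT moved from 0.17 to 0.74, and 2535 genes were called higher and 247 lower in place of 807 and 573; quantile normalization gave 678 and 767. Relative to that median, Cebpe stood at -2.47, Cebpd at -2.18, Cebpb at -2.01, Gfi1 at -1.90 and Nfe2 at -1.81. Spi1, Myb and Nr4a1 stood between -0.28 and -0.37 relative to it, and Cebpa at 0.88. Without that centring Cebpe (-1.73), Cebpd (-1.44) and Nfe2 (-1.07) still passed per recovered read, and Cebpb (-1.28) did not (adjusted p = 0.0824).

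Ordered by mean RPKM, a scale per length, the factors in WT ran Spi1, Nfe2, Cebpe, Cebpd, Cebpb, Myb, Nr4a1, Gfi1 and Cebpa. Only Cebpb and Myb were neighbours in that order with no overlap between libraries. In ITD the order was Nfe2, Spi1, Cebpe, Cebpd, Myb, Nr4a1, Cebpb, Cebpa and Gfi1, with gaps after Nfe2 and after Cebpe. In DKOITD it was Spi1, Nfe2, Cebpe, Cebpd, Cebpb, Myb, Cebpa, Nr4a1 and Gfi1, with gaps after Spi1, after Nfe2 and before Gfi1. Over all libraries Spi1 stood at percentile 97.4 of the mean RPKM of tested genes, Nfe2 at 96.03, Cebpe at 92.7 and Gfi1, the lowest, at 37.6.

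Across the 9 libraries Gfi1 and Nfe2 varied most alike among pairs of the factors (Pearson's r = 0.936), followed by Cebpe with Nfe2 (0.905), Cebpd with Cebpe (0.886) and Cebpd with Nfe2 (0.864). These values describe libraries that share groups and scaling. Over all tested genes, the levels most like that of Nfe2 were those of Arrb2, Palm and Hk3 (r from 0.988 to 0.990), and most like Cebpe those of Hmgb2, Arhgap19 and Tuba4a (0.980 to 0.989). For Gfi1 they were Cd24a, Slpi and Padi4 (0.965 to 0.974), for Cebpd Calm3, Abr and Mlst8 (0.957 to 0.986), and for Cebpb Kcnab2, Cela1 and Myo9b (0.949 to 0.954). For Cebpa the closest were Ms4a8a, Paip2 and Fastkd1, for Nr4a1 Chd1, Pard6a and Safb2, for Spi1 Mybbp1a, Ap2a1 and Acbd6, and for Myb Mcee, Chi3l3 and Sdccag3, with r from 0.898 to 0.945.

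**Figure D5:**
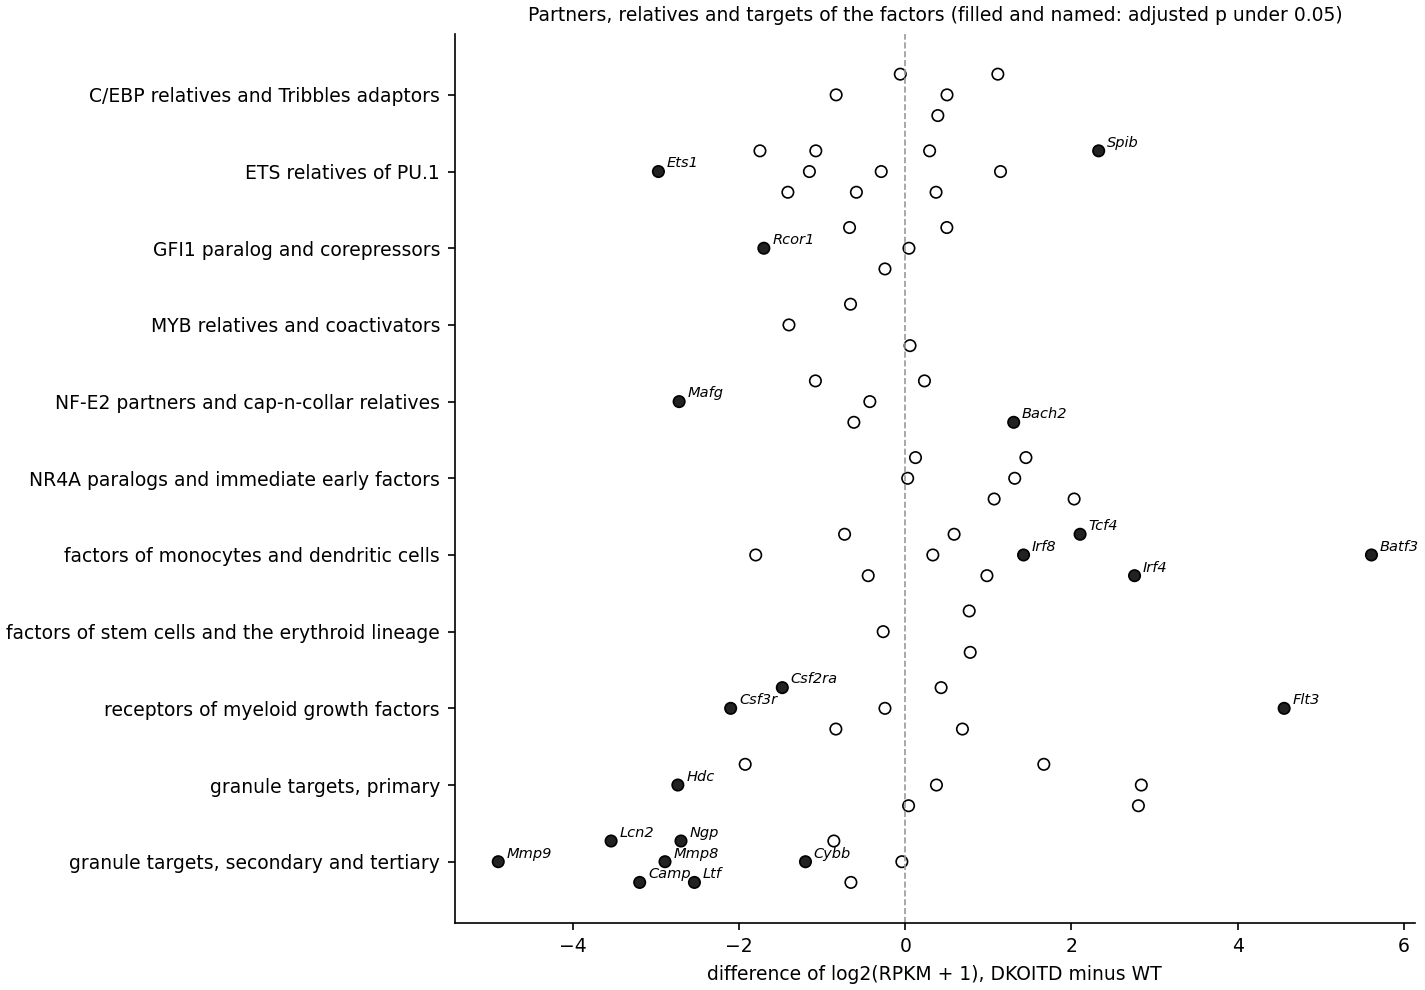
Difference of log2(RPKM + 1) between DKOITD and WT for the tested genes of each list of relatives, partners and targets (1 point a gene); filled and named points passed adjusted p under 0.05. Secondary and tertiary granule targets lie to the left, with 7 of 10 past the test, and Batf3, Irf4, Tcf4 and Irf8 to the right.

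Among the targets of these factors, most genes on the list of secondary and tertiary neutrophil granules were lower in DKOITD. Of 10 tested, 7 fell and 0 rose against WT, where 5.27% of all genes tested were called lower. The list's median difference was -2.62 beside 0.17 for all genes. Chil3 at -0.86, Ltb4r1 at -0.65 and Lyz2 at -0.04 did not pass (limma adjusted p = 0.383, 0.334 and 0.958). The gelatinase Mmp9 fell by 4.90, lipocalin 2 (Lcn2) by 3.54 and the cathelicidin Camp by 3.20, and Mmp8, Ngp, Ltf and Cybb fell too. The list shares 4 genes with the neutrophil markers. The list of primary granule genes, which are made earlier in maturation, also holds genes of that stage that are not granule proteins. Of its 7 tested genes only Hdc passed, a histamine-forming enzyme of the cytosol; it fell by 2.74, and the list's median was 0.38. Elane, the neutrophil elastase, averaged 1247 ± 1703 RPKM in WT (SD, n = 3) and 629 ± 367 RPKM in DKOITD (SD, n = 4), a difference of 0.04 ± 1.03 (adjusted p = 0.985). Its WT libraries stood at 442, 94.7 and 3203 RPKM. Mpo stood at 2.81 ± 1.98, Ctsg at 2.84 ± 1.62 and Cst7 at 1.67 ± 1.12. Prtn3 stood at 0.38 ± 0.83 and Ms4a3 at -1.93 ± 0.74, and none of these passed. With such spread the list does not show that primary granule genes were unchanged. In DKOITD against ITD and in ITD against WT no gene of either list passed, and the secondary and tertiary list had medians of -2.48 and -0.03.

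Of 7 myeloid growth factor receptors, Csf3r, the receptor for G-CSF, fell by 2.10 ± 0.51 (SE; limma adjusted p = 0.0226) and Csf2ra, a chain of the GM-CSF receptor, by 1.48 ± 0.38 (adjusted p = 0.0274). Csf3r measured 71.4, 75.4 and 75.5 RPKM in WT, 69.0 and 90.7 RPKM in ITD, but 9.83, 23.5, 6.83 and 44.2 RPKM in DKOITD, where every library lay below the 5 others, as for Nfe2. Flt3, the receptor with the ITD allele, stood 4.56 higher. It measured at most 0.145 RPKM in WT, 0 and 10.4 RPKM in ITD, but 34.5, 26.1, 39.2 and 8.80 RPKM in DKOITD. Outside DKOITD only ITD 2 reached 1 RPKM, so Flt3 met the filter only with DKOITD libraries. Its call is therefore a description, and the size of its difference depends on the pseudocount.

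Among 6 tested partners and cap-n-collar relatives of NF-E2, Mafg, a small Maf protein that pairs with the p45 subunit, fell by 2.72 ± 0.63 (SE; limma adjusted p = 0.018). Mafg averaged 68.1 RPKM in WT, 27.3 RPKM in ITD and 8.95 RPKM in DKOITD. Bach2, a repressor of the same family, had 0 RPKM in each WT library, 0 and 0.131 RPKM in ITD, but 1.68, 0.773, 2.26 and 1.41 RPKM in DKOITD. It also entered the test through DKOITD alone, so its call is a description, and its difference of 1.31 depends on the pseudocount. Of 11 ETS relatives of PU.1, Ets1, a factor of lymphoid cells, fell by 2.97 ± 0.67 (adjusted p = 0.0165). Spib, the closest relative of PU.1, was listed at 0 in every WT and ITD library and at 11.1, 1.47, 5.44 and 2.30 RPKM in DKOITD. It entered the test through DKOITD alone, so its call is a description, and its difference of 2.33 depends on the pseudocount. Of 5 tested GFI1 relatives and corepressors, Rcor1, a scaffold of the LSD1 complex that GFI1 recruits, fell by 1.70 ± 0.51 (adjusted p = 0.0486).

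Of 5 tested C/EBP relatives and Tribbles adaptors none passed. Cebpg, a C/EBP partner without an activation domain, stood nearest at 1.11 ± 0.38 (adjusted p = 0.0704). The MYB relatives and coactivators gave no call among 3, with the coactivator Ep300 at -1.40 ± 0.47 (adjusted p = 0.0686). The NR4A relatives and immediate early factors gave none among 6, with Jun at 2.03 ± 0.76 (adjusted p = 0.0961) and a list median of 1.19. Factors of stem cells and the erythroid lineage gave none among 3, with Runx1 at 0.78 ± 0.46 (limma adjusted p = 0.269). The 10 monocyte and dendritic cell factors moved the other way from Cebpe and Nfe2, with 4 higher and 0 lower. Batf3, a factor of conventional dendritic cells, rose by 5.61, Irf4 by 2.76, Tcf4, which governs plasmacytoid dendritic cells, by 2.10 and Irf8 by 1.42. In the other comparisons no gene of these lists passed.

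Of the 20 list genes called in DKOITD against WT, Batf3, Flt3, Hdc, Ltf, Camp, Lcn2 and Mmp9 (7) passed with any 1 of the 9 libraries left out. Flt3, like Spib and Bach2, met the filter only with DKOITD libraries, so its place among them is a description. Csf3r and Csf2ra lost their calls without WT 1, WT 2, DKOITD 1 or DKOITD 3 (adjusted p up to 0.0661 and 0.0865), and Mafg, Irf4 and Cybb without WT 2, DKOITD 1 or DKOITD 3 (up to 0.0598, 0.0634 and 0.0640). Mmp8 did so without WT 1, WT 2 or DKOITD 1 (up to 0.102), Ngp without DKOITD 1 (0.0510), Tcf4 without DKOITD 1 or DKOITD 3 (up to 0.0530), and Spib and Ets1 without DKOITD 3 (0.0571 and 0.0526). Rcor1 and Irf8 lost theirs in 7 of these 9 fits and Bach2 in 8, so these 3 calls rest near the threshold. Scaled per recovered read, Rcor1, Csf3r, Csf2ra and Cybb were not called, and under quantile normalization Bach2 was not.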

How the data were processed

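The authors deposited 1 table of RPKM, a row for each gene symbol and a column for each of the 9 libraries. Per the submitters' processing notes, which give neither role nor order, the build was mm10 and the tools STAR 2.4.2a, SAMtools 1.1 and HTSeq 0.6.1p1. Annotation, strand setting and scaling: not given in the sources used here. Smart-seq2 marks no strand, so overlapping genes can share reads. Of 15566 genes above 0, 15564 gave whole reads (99.98% of values; tolerance 0.0001 reads, lengths 20 to 30000 bases). Recovered reads were 23124435, 16085911 and 14770406 in WT, 5108022 and 13744891 in ITD, and 8836389, 2825728, 7510673 and 13301867 in DKOITD. The scaling total was 0.703 to 0.810 times these reads in WT, 0.853 and 0.919 times in ITD and 1.13 to 1.44 times in DKOITD. The reads came from fitted lengths, so no count model was run on them; limits from reads cover counting error only.

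The filter kept 10868 genes that reached 1 RPKM in 2 or more libraries. A limma 3.58.1 model (R 4.3.3; eBayes with a trend) was fitted to log2(RPKM + 1), all 9 libraries together with group as the only factor, two-sided, Benjamini-Hochberg adjusted over all genes with a threshold of 0.05. This scale understates changes of low genes. Groups come from the sample titles. Libraries with the same replicate number did not deviate together (correlations from -0.0444 to 0.0707), and no label says that a number is shared, so libraries were not paired. Alternatives were pseudocounts of 0.1 and 0.5, other filters, scalings and fits, the label number series as a term, a replicate block and leaving out each library.

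The 9 factors, the lists of relatives, targets and markers, and the tests were chosen with earlier results of these data known. All 9 factors are named in every library; of each list the genes past the threshold are named, up to 3 by size with values, or else the gene with the smallest p, and 3 genes most like each factor by Pearson's r. Elane and the other granule list genes not past the threshold were named after their values were seen. So were the 4 further secondary granule genes named without values. The result of 1 marker list is not reported here. Positions and coding sequences are from GENCODE vM21 and upstream windows from RefSeq on GRCm38.p6, where 5 of the 9 factors matched (Cebpa, Cebpb, Gfi1, Myb and Nr4a1); Cebpd, Cebpe, Spi1 and Nfe2 did not.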

Additional observations from a re-analysis of the deposited data

Results flagged for a closer look

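Cebpb in DKOITD 2 lay far from the other libraries of its group, at 26.4 RPKM where DKOITD 1, 3 and 4 had 6.01, 6.45 and 8.30 RPKM. The gap to the nearest library was 0.888 of the whole range, above Dixon's 95% critical value for 4 libraries. Chance gives such a gap in about 1 in 20 groups, and 9 genes were looked at. DKOITD 2 had the fewest recovered reads (2825728), and it was also the highest of its group for Cebpa, at 22.2 RPKM, for Cebpe, at 38.4 RPKM, and for Myb, at 17.4 RPKM.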

How the results depend on the processing

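Over 21 alternatives, the 4 calls of DKOITD against WT kept their direction, and the calls of Cebpd, Cebpe and Nfe2 ended in a single one, the fit that includes the series of label numbers, where 0 of the 9 factors passed. There the contrast rests on DKOITD 4 alone. Cebpb also lost its call with no filter, per recovered read and without WT 1, WT 2, DKOITD 1, DKOITD 3 or DKOITD 4, with adjusted p up to 0.0977 (0.436 with the series term). With 1 library left out, between 3 and 4 factors were called in DKOITD against WT (Gfi1 in place of Cebpb without DKOITD 4). In DKOITD against ITD 0 to 1 were, and library quality weights gave 1, Nfe2 in both cases. No paired fit was called for, but with a replicate block, in which DKOITD 4 has no partner, 5 factors passed in DKOITD against WT (Gfi1 at adjusted p = 0.0475), 0 in the other comparisons, and 884, 57 and 0 of all genes in place of 1380, 23 and 1.

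Directions turned only for differences that had not passed. Per recovered read, DKOITD against WT gave 0.39 for Spi1, 0.37 for Myb and 0.46 for Nr4a1, DKOITD against ITD gave 0.13 for Nr4a1, and ITD against WT gave 0.17 for Gfi1. With the series term DKOITD against ITD gave -0.17 for Cebpa, -0.15 for Cebpb and 0.25 for Cebpd, and library quality weights gave -0.075 for Cebpa and -0.074 for Cebpb. In ITD against WT, Gfi1 stood at 0.00098 with a pseudocount of 0.1, and Nr4a1 at -0.035 with the replicate block. Leaving out 1 library gave ranges of -0.76 to 0.053 for Spi1 and -0.64 to 0.18 for Nr4a1 in DKOITD against WT. In DKOITD against ITD they were -0.51 to 0.59 for Cebpa, -0.39 to 0.31 for Cebpb and -0.81 to 0.056 for Nr4a1, and in ITD against WT -0.19 to 0.11 for Gfi1 and -0.28 to 0.58 for Nr4a1. The cause was not tested.

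Counts over all genes moved by more than 1.5 times in several fits. DKOITD against WT called 733 genes with no filter, 2782 per recovered read, 4 with the series term, and 766, 611 and 541 without WT 2, DKOITD 1 and DKOITD 3. DKOITD against ITD called 42 under quantile normalization, 268 per recovered read, 0 with the series term, 94 with only those groups fitted, 526 with library quality weights and 0 to 156 with 1 library left out. ITD against WT called 2 with either other pseudocount or no trend, 3 with no filter and 0 to 47 with 1 library left out. In DKOITD, Gfi1 rests on 0 to 207 reads, Cebpb on 105 to 187 and Nr4a1 on 77 to 248.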
